A study of Mus musculus with 12 samples.

Results

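The response to tumour necrosis factor alpha (TNF) was compared between 2 genotypes of mouse KSL cells, the c-Kit+, Sca-1+, Lin- bone marrow fraction, in which haematopoietic stem cells and early progenitors are found. For each of 18193 genes the TNF response on arrays labelled mutant was set against the response on wild-type arrays, as mutant TNF minus mutant untreated, less the same subtraction in wild type. All 12 of the 12 arrays of the series entered, 3 in each of 4 groups. The groups were wild-type cells without TNF, wild-type cells with TNF, Fancc-/- cells without TNF and Fancc-/- cells with TNF. The donors were 2 to 4 months old. Cells were kept for 24 h in serum-containing medium with stem cell factor, Flt3 ligand, IL-11 and IL-6, and the treated cultures also held TNF at 10 ng/ml. A strain, the sex of the mice and whether mice were pooled are not given in the labels used here. Nothing in them says that replicates came from separate mice, so the p-values measure only how these samples scatter, and that scatter may be technical in part. Sex-linked signals, given below, differed between replicates within some groups.

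TNF is an inflammatory cytokine that binds the receptors encoded by Tnfrsf1a and Tnfrsf1b and, through adaptor proteins, releases NF-kB transcription factors from their cytoplasmic inhibitors. NF-kB dimers then switch on inflammatory genes together with the genes of their own inhibitors, which end the signal. The Fancc product belongs to the core complex of the Fanconi anaemia pathway, through which cells repair DNA crosslinks, and haematopoietic progenitors that lack Fanconi anaemia proteins are known for their sensitivity to inflammatory cytokines. The comparison asks whether the transcripts that TNF moves differ between the genotypes.

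Promoter windows of 4 TNF-responsive genes are printed because they hold letters that match a binding motif of NF-kB, and the genes' responses are given below. Nfkbia and Tnfaip3 encode inhibitors of the pathway, Nfkb2 a subunit and Cxcl10 a chemokine. The sequences are RefSeq's, from 250 bases before to 50 bases after the first listed start of each gene, on build GRCm38.p6, and are written 5′ to 3′ on the gene's strand. Nfkbia lies at chr12:55492598-55492897 (minus strand), Tnfaip3 at chr10:19015361-19015660 (minus), Nfkb2 at chr19:46304487-46304786 (plus) and Cxcl10 at chr5:92348840-92349139 (minus). Capitals mark matches to GGGNNNTTCC on either strand.
Nfkbia: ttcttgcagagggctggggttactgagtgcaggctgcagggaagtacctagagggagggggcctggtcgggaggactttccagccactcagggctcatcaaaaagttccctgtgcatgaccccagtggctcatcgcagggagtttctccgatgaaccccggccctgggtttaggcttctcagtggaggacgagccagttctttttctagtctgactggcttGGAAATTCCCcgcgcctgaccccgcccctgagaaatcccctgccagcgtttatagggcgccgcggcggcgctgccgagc
Tnfaip3: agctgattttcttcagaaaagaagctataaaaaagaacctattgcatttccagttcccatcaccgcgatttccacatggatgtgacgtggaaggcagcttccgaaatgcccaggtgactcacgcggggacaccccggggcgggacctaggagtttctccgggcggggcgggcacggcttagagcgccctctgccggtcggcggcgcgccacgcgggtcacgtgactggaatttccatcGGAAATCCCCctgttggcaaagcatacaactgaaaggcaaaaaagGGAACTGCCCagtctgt
Nfkb2: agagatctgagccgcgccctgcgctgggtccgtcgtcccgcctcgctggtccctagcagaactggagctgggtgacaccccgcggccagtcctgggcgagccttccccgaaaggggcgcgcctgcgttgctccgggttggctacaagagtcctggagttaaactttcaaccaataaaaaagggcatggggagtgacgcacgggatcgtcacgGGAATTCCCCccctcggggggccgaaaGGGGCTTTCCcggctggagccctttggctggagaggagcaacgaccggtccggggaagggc
Cxcl10: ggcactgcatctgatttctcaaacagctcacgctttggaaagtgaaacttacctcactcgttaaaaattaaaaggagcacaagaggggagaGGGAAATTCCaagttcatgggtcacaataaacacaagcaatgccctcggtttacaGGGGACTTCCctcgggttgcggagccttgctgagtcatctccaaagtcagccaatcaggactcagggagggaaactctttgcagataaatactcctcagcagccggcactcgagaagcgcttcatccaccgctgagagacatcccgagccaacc
The motif was found 1 time in the Nfkbia window and 2 times in each of the others. It occurred in 5.52% of the 27025 windows with 1 window per gene symbol, in 6 of the 11 windows of measured NF-kB subunit and inhibitor genes and in 6 of the 24 windows of measured NF-kB target genes. A match describes the letters in the window only.

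Some arrays stood apart, and the level of Fancc did not check the genotype labels. Fancc itself did not read lower on the mutant-labelled arrays, where its brightest probe set read 8.73 to 9.16 against 8.22 to 8.65 on the wild-type arrays (log2). A probe set outside the disrupted part of the gene checks nothing, so genotype is given as labelled. Its response to TNF was 0.09 in wild type and -0.03 on the mutant-labelled arrays. The X-linked silencing RNA Xist and the Y-linked gene Eif2s3y were both bright on 7 of the arrays, which therefore carried both female and male signal. Xist alone was bright on wild-type TNF replicate 3 and untreated mutant replicate 2, and Eif2s3y alone on the other 3, all of them untreated. Of the untreated arrays only wild-type replicate 3 and mutant replicate 3 carried both signals. A fit on the 7 arrays alone therefore rests on 1 untreated array per genotype. On the second principal component (14.3% of the variance) untreated wild-type replicate 1 and TNF-treated wild-type replicate 1 lay highest, at 35.27 and 20.11, and untreated and TNF-treated mutant replicate 3 lowest, at -17.82 and -18.19. RNA taken after 24 h of culture cannot check the sort itself. Of the gate markers, the c-Kit gene Kit read 9.95 to 10.77 over the 12 arrays. The progenitor markers Cd34 and Flt3 read 12.81 to 13.13 and 11.44 to 12.15. The gene of Sca-1 had no probe set with a single symbol here. Of lineage markers, Itgam read 4.75 to 6.08, Cd4 4.80 to 5.25 and Cd3e 3.13 to 3.69. Other markers went the other way. On the untreated arrays the neutrophil genes S100a8 and Ngp read 12.72 to 13.32 and 9.40 to 10.55. The monocyte gene F13a1 read at least 11.04 there. The stem cell marker gene Slamf1 read only 3.33 to 4.51 over the 12 arrays. In such bulk samples fewer cells of a type and less RNA per cell cannot be told apart.

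No gene passed the test for a genotype-dependent TNF response. The test was limma's 2-sided moderated test of the difference between the 2 responses, adjusted by Benjamini-Hochberg over all genes. At an adjusted p under 0.05 it called 0 of 18193 genes (0%). The smallest adjusted p was 1. An unadjusted p under 0.05 was reached by 527 genes (2.9%), of which 228 (1.25%) had a more positive and 299 (1.64%) a more negative response on the arrays labelled mutant. If no gene differed, 910 would be expected at that threshold, so the count was below it. Counts of list members at that threshold, given below, are to be read beside the 2.9% of all genes. A difference of at least 1 on the log2 scale in either direction was seen for 100 genes (0.55%). For the median gene the 95% interval of the difference, unadjusted for the number of genes, reached 0.38 to each side of the estimate. For 16116 genes the whole interval lay within 1 on the log2 scale (2-fold) of no difference, and for 2077 it reached beyond. The count of calls was also 0 with Xist and Eif2s3y as covariates (521 genes at an unadjusted p under 0.05) and without both wild-type arrays numbered 1 (672).

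**Figure D1:**
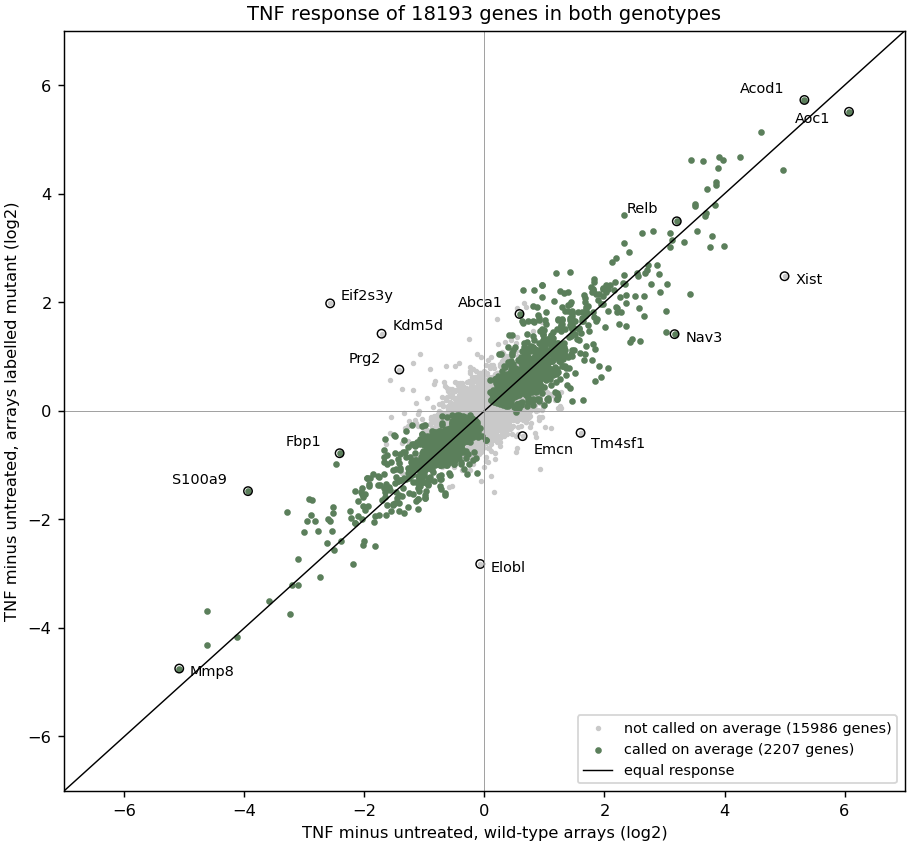
Each point is 1 gene, placed by its TNF response (mean of 3 TNF arrays minus mean of 3 untreated arrays, log2) on wild-type arrays and on arrays labelled mutant. The 2207 genes that passed for the average TNF response lie along the line of equal response, and the labelled genes Elobl, Tm4sf1, Prg2, Eif2s3y and Kdm5d lie far from it without passing the test.

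Genes with a negative difference are given first, not strictly in order of unadjusted p. Gfra4, a receptor subunit of the GDNF family, had the smallest. It read 4.98, 5.13 and 4.96 without TNF and 5.63, 5.53 and 5.46 with TNF in wild type. On the arrays labelled mutant it read 5.29, 5.27 and 5.25 without TNF and 5.26, 5.24 and 5.24 with TNF. The wild-type groups did not overlap, and the 6 mutant-labelled arrays all lay between them. The difference was -0.54 (SE 0.10, 95% interval -0.77 to -0.32), with unadjusted p = 0.000264 and a limma adjusted p of 1.

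Spats2, whose product is a cytoplasmic RNA-binding protein, read 6.22, 6.53 and 6.72 without and 8.35, 7.99 and 8.64 with TNF in wild type. On the mutant-labelled arrays the values were 7.04, 7.04 and 7.15 without and 7.70, 7.39 and 7.78 with TNF. The treated arrays lay above the untreated ones in both genotypes, and the wild-type response of 1.84 passed its own test while the mutant-labelled one of 0.55 did not. The difference between them was -1.29 (SE 0.24, interval -1.82 to -0.75) and did not pass.

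Cbx7, a Polycomb subunit that reads trimethylated histone H3 and is known for its role in stem cell self-renewal, rose in both genotypes. Its values were 5.98, 5.98 and 6.24 without and 7.69, 7.78 and 7.70 with TNF in wild type, and 6.07, 6.09 and 6.11 without and 7.004, 7.23 and 6.84 with TNF on the arrays labelled mutant. All untreated arrays lay at or below 6.24, every TNF array at or above 6.84, and each treated wild-type array above each treated mutant-labelled one. The responses were 1.66 and 0.93, a difference of -0.72 (SE 0.15, interval -1.05 to -0.40). Of the other 2 probe sets of Cbx7 one gave a difference of -0.57 and the other 0.27.

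Tm4sf1, which encodes a small membrane protein abundant in endothelium, read 6.06, 4.60 and 4.71 in untreated wild type and 6.68, 6.45 and 7.04 with TNF. On the mutant-labelled arrays it read 5.63, 5.51 and 5.21 without and 5.22, 4.87 and 5.04 with TNF, and these groups overlapped. It rose in wild type by 1.60, and the difference was -2.01 (SE 0.46, interval -3.02 to -0.99). Without untreated wild-type replicate 1, the highest of its group, the difference was -2.48 and passed (limma adjusted p = 0.0323), which made Tm4sf1 the 1 gene called under any alternative tried. Over the alternatives its adjusted p ran from 0.0323 to 1. The other 2 probe sets, which are dimmer, gave differences of -0.31 and 0.03.

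Emcn (endomucin), a sialomucin of endothelium and of stem cells, had responses of opposite sign in the 2 genotypes and passed in neither. Wild-type arrays read 6.97, 6.43 and 6.36 without and 7.02, 7.25 and 7.41 with TNF, and mutant-labelled arrays 6.97, 7.04 and 6.65 without and 6.32, 6.56 and 6.39 with TNF. Treated and untreated arrays overlapped in neither genotype. The responses of 0.64 and -0.47 differed by -1.10 (SE 0.24, interval -1.63 to -0.57). The other genes with the smallest unadjusted p in this direction were B3gnt3 (-0.54), a glycosyltransferase, Lrat (-0.48), which esterifies retinol, Slc35e4 (-0.56), Col5a3 (-0.55), a collagen chain, and Mpzl1 (-0.76), an adhesion receptor of the myelin protein zero family.

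In the other direction Abca1, the transporter that moves cholesterol out of cells, came first. It read 5.35, 5.05 and 5.73 without and 5.59, 6.12 and 6.17 with TNF in wild type, where the groups overlapped. On the mutant-labelled arrays it read 5.04, 4.99 and 4.73 without and 6.62, 6.63 and 6.87 with TNF, which places the treated arrays above all others. Its rise on the arrays labelled mutant was 1.78 and passed, its wild-type response was 0.58 and did not, and the difference was 1.20 (SE 0.27, interval 0.61 to 1.79, limma adjusted p of 1). The dimmer 2 probe sets gave 0.24 and 0.06. Mylip, a ligase that degrades the LDL receptor and like Abca1 a target of the sterol-sensing LXR receptors, had a difference of 0.48 (interval 0.11 to 0.85). These were the 2 of 16 measured cholesterol efflux and LXR target genes with an unadjusted p under 0.05, the background being 2.9% of all genes, and the median difference of that group was 0.07. Scd1, another LXR target, had the lowest difference of the group (-0.68), so the members did not move as one. None of the 16 measured cholesterol synthesis genes reached an unadjusted p under 0.05, and their median difference was -0.06.

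Slamf7, a surface receptor of the SLAM family found on natural killer, plasma and activated myeloid cells, read 5.10, 5.10 and 4.98 without and 5.01, 4.79 and 4.96 with TNF in wild type. It read 4.98, 5.05 and 4.94 without and 5.33, 5.48 and 5.79 with TNF on the arrays labelled mutant. Treated mutant-labelled arrays lay above all others, and the response there of 0.54 passed while the difference of 0.68 (SE 0.16, interval 0.33 to 1.04) did not. Slamf1, the stem cell marker CD150, had a difference of 0.71 at levels of 3.33 to 4.51. These 2 of 10 measured SLAM genes reached an unadjusted p under 0.05, as did 2.9% of all genes. The median difference of the SLAM genes was 0.33, against -0.0002 over all genes, and it was -0.18 when only genes with at least 3 arrays above the median of all values were kept. The other genes with the smallest unadjusted p in this direction were Ahnak2 (0.96), Il4 (0.51), Mospd4 (0.69), Fmr1nb (0.89), Krtap5-3 (0.47), Cypt4 (0.42), Car6 (0.85), a secreted carbonic anhydrase, and the oestrogen receptor gene Esr2 (0.45). Apart from Il4, none of these 8 belonged to a haematopoietic group examined here, and no reading of any of the 8 exceeded 6.10.

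**Figure D2:**
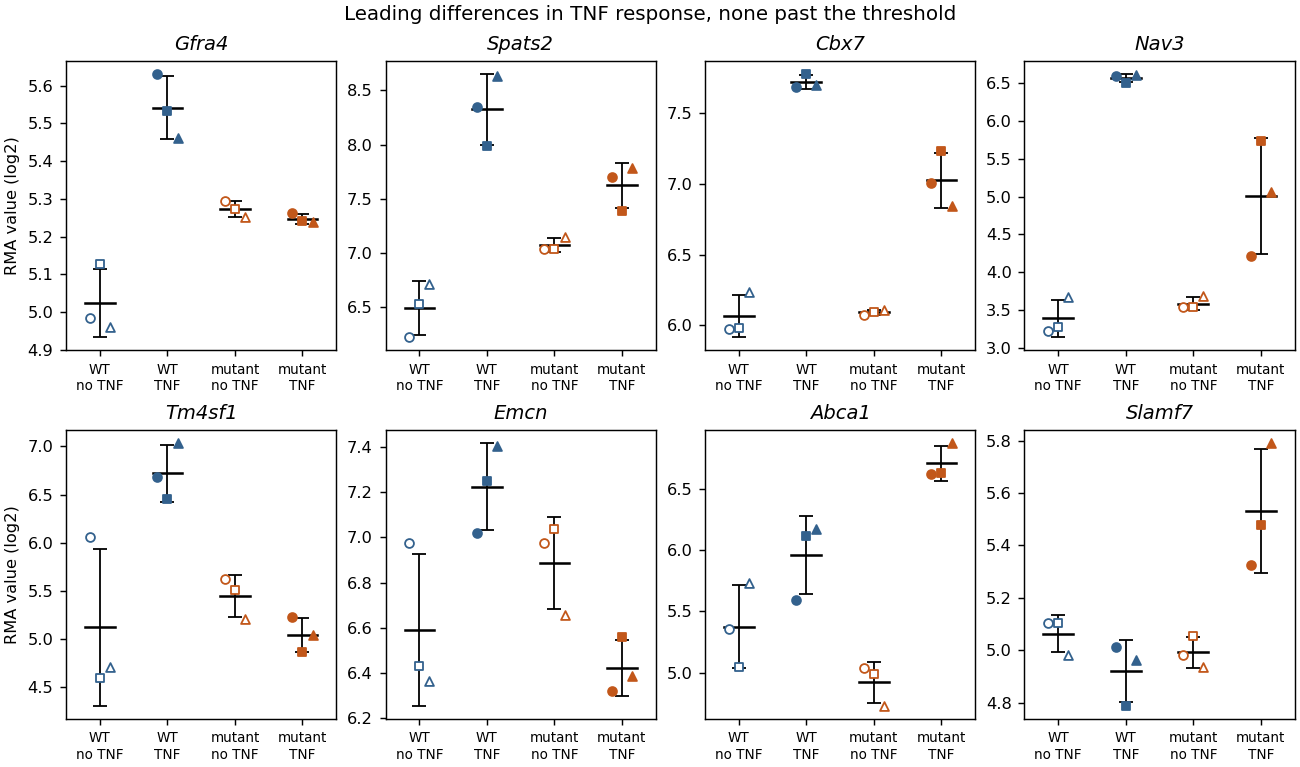
RMA values (log2) of 8 genes on each array, with circle, square and triangle for replicates 1, 2 and 3, open symbols for untreated and filled symbols for TNF, and bars for the mean and SD of 3 arrays. In Gfra4, Spats2, Cbx7, Nav3 and Tm4sf1 the step from untreated to TNF is larger in wild type, in Abca1 and Slamf7 it is larger on the arrays labelled mutant, and in Emcn it runs in opposite directions.

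Averaged over genotype, limma called 2207 genes (12.1%), 1057 higher (5.81%) and 1150 lower (6.32%). In this balanced design the estimate of the average is uncorrelated with that of the difference. Both tests use the same estimate of each gene's scatter, so choosing genes by the average is not independent of the test of the difference. The split between higher and lower moved with the scaling, to 852 and 1419 with arrays centred on their median and to 1215 and 979 with cyclic loess. With Xist and Eif2s3y as covariates 1270 were called, and fewer still on the 7 arrays with both signals alone. Of the 2207, 2204 had the same sign in both genotypes and 3 had opposite signs, which choosing them by the average largely fixes. Their median response size was 0.54 in wild type and 0.52 on the mutant-labelled arrays. For 1685 of them the 95% interval of the difference lay within 1 on the log2 scale. An unadjusted p under 0.05 for the difference was reached by 107 of the 2207 (4.85%, against 2.9% of all genes), with a larger response on the mutant-labelled arrays for 40 and a smaller one for 67. Neither of these pooled shares exceeds what a threshold of 0.05 allows if no gene differed. Among the 1057 that rose the share was 6.62% (70 genes), which exceeds it. The response was smaller on the mutant-labelled arrays for 48 of these and larger for 22. Among the 1150 that fell the share was 3.22% (37 genes, 19 smaller and 18 larger). None of these differences passed over all genes.

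Among genes that TNF moved at least 2-fold on average the median sizes were close. The 280 that rose had a median response of 1.45 in wild type and 1.63 on the mutant-labelled arrays, and the response was larger on the latter for 158 of them. The 178 that fell had a median size of 1.46 and 1.37, and 67 were larger on the arrays labelled mutant. For these strongly moved genes the intervals were wide, and only 135 of the 458 lay wholly within a 2-fold difference. The arrays of both genotypes separated without overlap in the same direction for 1899 genes (10.4%) and in opposite directions for 32 (0.176%).

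The strongest rises were those of enzymes, receptors and secreted proteins. Aoc1, the diamine oxidase that degrades histamine and putrescine, read 4.45, 4.70 and 4.19 without and 10.29, 10.30 and 10.98 with TNF in wild type, and 4.01, 4.58 and 4.09 without and 9.77, 9.92 and 9.53 with TNF on the arrays labelled mutant. Every treated mutant-labelled array lay below every treated wild-type array. The responses of 6.07 and 5.51 differed by -0.56 (SE 0.31, interval -1.24 to 0.11), which did not pass. Acod1, the itaconate-producing enzyme of activated macrophages, responded by 5.33 and 5.73, a difference of 0.40 (interval -1.04 to 1.84). Its treated mutant-labelled arrays spread widely, at 10.11, 8.50 and 10.90, against 9.13, 8.75 and 8.87 in wild type. The same spread, with replicate 2 lowest, was seen for the formyl peptide receptor gene Fpr2 (11.74, 10.36 and 12.34), Ly6i (9.28, 8.81 and 10.34), the adhesion receptor gene Adgre4 (8.68, 7.26 and 9.72) and the copper oxidase gene Cp (9.93, 9.09 and 10.65). Differences of these 4 ran from 0.42 for Fpr2 to 0.96 for Adgre4. Sema6d, a semaphorin, had the smallest unadjusted p for the difference (0.0524) of the 20 genes with the strongest average responses, at 0.58 (interval -0.01 to 1.17). Gpr25 (0.54), Parm1 (0.35) and the cytoskeletal regulator Dpysl3 (-0.54) complete the 10 highest.

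The strongest falls belonged to neutrophil and monocyte genes. Mmp8, the neutrophil collagenase, fell by 5.08 in wild type and by 4.75 on the mutant-labelled arrays, a difference of 0.34 (interval -1.12 to 1.79). Its values were 9.27, 10.64 and 10.83 without and 5.10, 5.29 and 5.09 with TNF in wild type, and 10.80, 10.37 and 11.51 without and 5.99, 5.43 and 7.02 with TNF on the mutant-labelled arrays, with each treated mutant-labelled array above each treated wild-type one. F13a1, a coagulation factor subunit of monocytes, differed by 0.31, Ifitm6 by -0.03, the neutrophil elastase gene Elane by 0.08 and the chemokine receptor gene Ccr1 by -0.11. Mgam responded by -3.21 in wild type and -3.21 on the mutant-labelled arrays. Vcan, a matrix proteoglycan of monocytes, and the protease inhibitor gene Spint1 had lower values of the difference (-0.51 and -0.32), and Sirpb1a (0.38) and the chitinase-like gene Chil3 (0.94) higher ones. The interval for Elane ran from -2.34 to 2.50 and that for Chil3 from -2.21 to 4.10, so for both a difference of several fold either way lay within the error.

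**Figure D3:**
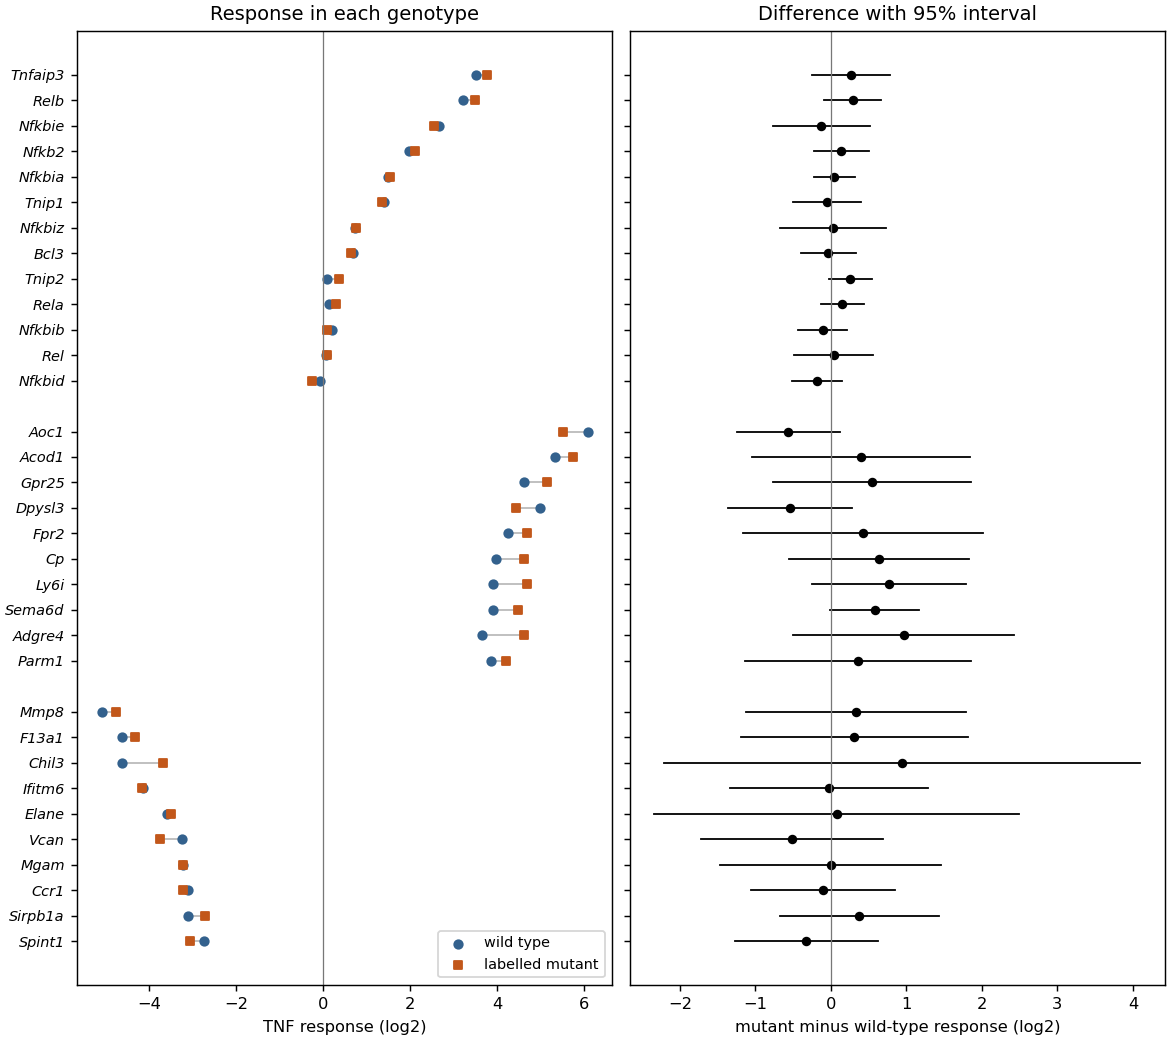
Left, TNF responses (log2) in wild type (circles) and on arrays labelled mutant (squares) for the 13 measured NF-kB subunit and inhibitor genes, the 10 genes with the highest and the 10 with the lowest average response. Right, the difference between the 2 responses with its 95% interval, which includes 0 for every gene drawn.

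For the 25 measured receptor and adaptor genes of TNF the median difference was 0.0004, with 13 positive and 12 negative. Of the ligands and receptors, Tnf itself rose in both genotypes, by 0.70 and 0.92, with a difference of 0.21 (interval -0.26 to 0.68). Its values were 9.06, 8.50 and 8.36 without and 9.37, 9.35 and 9.31 with TNF in wild type, and 8.36, 8.42 and 8.44 and 9.20, 9.33 and 9.44 on the arrays labelled mutant, and the treated groups overlapped. Tnfrsf1a, the receptor with a death domain, fell on average and differed by -0.05 (interval -0.61 to 0.51). Tnfrsf1b, the receptor without one, responded by -0.22 and 0.22 and differed by 0.44 (interval -0.25 to 1.12). Traf1, an adaptor of the receptor complex, rose by 2.32 and 3.09, the highest difference of the 25 measured receptor and adaptor genes at 0.77, and the value was -0.09 with the mean of its probe sets. Tradd, the adaptor that links the death domain to both survival and death signals, responded by 0.18 and -0.16 and had the lowest, -0.33 (interval -0.62 to -0.04), and was the 1 of 25 with an unadjusted p under 0.05.

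Of the 13 measured NF-kB subunit and inhibitor genes 9 rose on average (5.81% of all genes did), 7 rose in wild type (2.69%) and 7 on the mutant-labelled arrays (2.45%). Relb, a subunit of the alternative NF-kB dimer, read 6.41, 6.31 and 6.60 without and 9.63, 9.81 and 9.49 with TNF in wild type, and 5.81, 6.23 and 6.08 without and 9.58, 9.52 and 9.49 with TNF on the arrays labelled mutant. The treated arrays of both genotypes overlapped, and the untreated mutant-labelled arrays lay below the untreated wild-type ones. Relb rose by 3.20 and 3.49, a difference of 0.29 (interval -0.09 to 0.67), which was the largest of the 13. Nfkb2, its partner, rose by 1.97 and 2.11 and differed by 0.14 (interval -0.23 to 0.51). Rela and Rel, the subunits of the classical dimers, passed in neither genotype and differed by 0.15 and 0.04.

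Of the inhibitors, Nfkbia, which encodes the inhibitor that TNF signalling degrades and NF-kB restores, read 12.22, 11.87 and 12.10 without and 13.58, 13.52 and 13.55 with TNF in wild type, and 11.99, 11.89 and 11.94 without and 13.45, 13.49 and 13.48 with TNF on the arrays labelled mutant. All 6 treated arrays lay between 13.45 and 13.58. The difference was 0.05 (interval -0.23 to 0.32). Tnfaip3, the ubiquitin-editing enzyme A20 that shuts down the receptor complex, rose by 3.51 and 3.77, from 6.57, 6.09 and 5.92 to 9.77, 9.73 and 9.60 in wild type and from 6.19, 5.77 and 5.70 to 9.67, 9.63 and 9.68 on the mutant-labelled arrays. Its treated groups overlapped, and its difference was 0.26 (interval -0.25 to 0.78). Nfkbie (-0.12), Nfkbiz (0.03), Bcl3 (-0.04), Tnip1 (-0.05), Tnip2 (0.26), Nfkbib (-0.11) and Nfkbid (-0.18) lay between -0.18 and 0.26. For all 13 genes the 95% interval of the difference lay within 1 on the log2 scale, as it did for 16116 of the 18193 genes (88.6%).

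Target genes of NF-kB outside the pathway were more variable. Of 34 measured, 15 rose and 3 fell on average (5.81% and 6.32% of all genes), and the median response was 0.37 in wild type and 0.44 on the mutant-labelled arrays. Ptgs2, the inducible prostaglandin synthase COX-2, read 7.65, 7.60 and 6.92 without and 9.38, 8.78 and 9.39 with TNF in wild type, and 7.93, 7.33 and 7.39 without and 8.51, 8.61 and 8.34 with TNF on the arrays labelled mutant. Every treated wild-type array lay above every treated mutant-labelled one. Its responses of 1.79 and 0.94 differed by -0.85 (SE 0.33, interval -1.59 to -0.12, unadjusted p = 0.026), and it was the 1 member with an unadjusted p under 0.05. Cxcl10, whose promoter window is printed above, read 5.76, 5.95 and 5.18 without and 7.57, 8.24 and 8.43 with TNF in wild type, and 6.87, 6.46 and 8.01 without and 8.55, 7.99 and 8.76 with TNF on the arrays labelled mutant. The treated groups overlapped, while all 3 untreated mutant-labelled arrays lay above the untreated wild-type ones. The difference of -1.13 (interval -2.33 to 0.07) was the lowest of the list. The chemokine gene Ccl4 fell in both genotypes, by 0.98 in wild type and 1.61 on the mutant-labelled arrays (difference -0.63).

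Genes of cell death, DNA repair and oxidative stress, the processes that Fanconi anaemia proteins are studied for, showed few differences. No member of the apoptosis and necroptosis (29 measured), p53 target (29), antioxidant (27) or NADPH oxidase (8) lists reached an unadjusted p under 0.05 for the difference. Their median differences were 0.05, 0.02, 0.04 and 0.003. Among death genes the initiator caspase gene Casp8 differed by 0.17 (interval -0.07 to 0.41) and Bmf, a BH3-only death activator, by 0.24 (interval -0.14 to 0.61). Perp, a p53 target of the plasma membrane, had the lowest difference of its list at -0.61 (interval -1.58 to 0.37), and the damage kinase gene Atm differed by -0.23, or by 0.04 with the mean of its probe sets. Of stress genes, the haem oxygenase gene Hmox1 differed by 0.50, the cystine transporter gene Slc7a11 by 0.68 and the mitochondrial superoxide dismutase gene Sod2 by 0.26, and the interval of each included 0. Slc7a11 read 9.08, 7.63 and 9.54 on the treated mutant-labelled arrays, again with replicate 2 lowest.

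Among the 27 measured Fanconi anaemia and homologous recombination genes TNF moved none in either genotype or on average. For 26 of the 27 the 95% interval of the difference lay within a 2-fold difference. Fancd2, the protein that the core complex ubiquitinates, differed by 0.23 and the helicase gene Blm by 0.27. Aldehydes are a known source of the crosslinks this pathway repairs. Of 20 aldehyde metabolism genes, Aldh1l1, a folate enzyme, differed by -0.50 (interval -0.93 to -0.07), the 1 member with an unadjusted p under 0.05. Aldh1a7, a close relative of the retinal dehydrogenase gene Aldh1a1, rose in wild type by 2.43 and responded by 1.27 on the arrays labelled mutant, where untreated replicate 2 alone read 4.93 against 3.02 and 3.19 (difference -1.17, interval -2.61 to 0.27).

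Interferon-stimulated genes had more negative than positive differences. Of 33 measured, 21 had a negative and 12 a positive difference, with a median of -0.10 that stayed between -0.17 and -0.05 over the 22 alternatives. In wild type 6 rose (2.69% of all genes) and 0 fell, and on the arrays labelled mutant 3 rose (2.45%) and 2 fell (1.86%). Ifit3, an antiviral RNA-binding protein gene, read 5.91, 6.02 and 5.69 without and 6.53, 6.57 and 6.27 with TNF in wild type, and 6.18, 5.97 and 6.20 without and 6.16, 6.10 and 6.24 with TNF on the arrays labelled mutant. The wild-type groups did not overlap and the mutant-labelled ones did. The difference was -0.53 (SE 0.16, interval -0.88 to -0.18, unadjusted p = 0.00713). Oasl1 fell on the arrays labelled mutant (-0.88) against -0.14 in wild type, a difference of -0.74 (interval -1.32 to -0.16), and its untreated mutant-labelled arrays read 6.42, 6.31 and 6.94 against 5.96, 5.88 and 5.60 in wild type. Herc6, an interferon-induced ligase gene, differed by -0.35 (interval -0.74 to 0.04). These 2 of 33 with an unadjusted p under 0.05 compare with 2.9% of all genes.

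Antigen presentation genes showed none under that threshold. Of the 9 measured MHC class II genes 6 rose on average (5.81% of all genes did). The median response was 1.42 in wild type and 1.80 on the mutant-labelled arrays, with a median difference of 0.17. Without both wild-type arrays numbered 1 the median difference was -0.07, and those of H2-DMb2 and H2-Eb1, given next, were 0.28 and 0.18. H2-DMb2, a chain of the peptide-loading chaperone, read 8.35, 9.76 and 9.61 on treated wild-type arrays, of which replicate 1 was lowest, and 10.20, 10.10 and 10.61 on treated mutant-labelled arrays. Its difference was 0.86 (interval -0.14 to 1.87), and that of the antigen-presenting chain H2-Eb1 was 0.53 (interval -0.41 to 1.47). For all 14 measured MHC class I and immunoproteasome genes the interval lay within a 2-fold difference, with H2-K1 at 0.09 and H2-D1 at 0.07.

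Of the 30 lists, mast cell, basophil and eosinophil genes had the highest share with an unadjusted p under 0.05 for the difference. In that list 4 of 17 measured genes reached it (23.5%, against 2.9% of all genes), all 4 with a more positive response on the mutant-labelled arrays, as did 1.25% of all genes. They were Il4 and the eosinophil granule genes Epx, Prg2 and Prg3. The median response was -0.54 in wild type and -0.07 on the mutant-labelled arrays. In wild type 3 members fell (2.33% of all genes did), Il4 among them, and on the arrays labelled mutant 0 passed. None of the differences passed over all genes.

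Epx, the eosinophil peroxidase gene (chromosome 11), read 6.94, 7.15 and 6.55 without and 4.58, 5.67 and 5.70 with TNF in wild type. On the arrays labelled mutant it read 4.93, 6.44 and 5.09 without and 6.54, 5.55 and 6.06 with TNF. The wild-type groups did not overlap, the mutant-labelled ones did, and all 3 untreated mutant-labelled arrays lay below the untreated wild-type ones. The difference was 2.13 (SE 0.60, interval 0.81 to 3.46, unadjusted p = 0.0047).

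Prg2 and Prg3 encode the major basic protein of eosinophil granules and its homologue, and lie on chromosome 2. Prg2 read 9.03, 10.32 and 10.20 without and 7.98, 9.34 and 7.99 with TNF in wild type, and 7.38, 9.75 and 8.54 without and 9.80, 9.28 and 8.88 with TNF on the arrays labelled mutant, with overlap in both genotypes. Prg3 read 5.93, 6.53 and 6.23 without and 5.10, 6.13 and 3.90 with TNF in wild type, and 3.95, 5.56 and 5.90 without and 6.01, 6.06 and 5.995 with TNF on the arrays labelled mutant. Replicate 1 was the lowest untreated mutant-labelled array for Epx, Prg2 and Prg3. The differences were 2.18 (SE 0.83) and 2.07 (SE 0.78), and for Prg3 it was 0.74 on the 7 arrays with both sex signals. Il4, a cytokine of basophils and mast cells, read 5.19, 5.12 and 4.84 without and 4.46, 4.45 and 4.37 with TNF in wild type and 4.36 to 4.59 on the 6 arrays labelled mutant, near the floor. The summed level of the list, as the mean of its 17 genes, was 6.86 to 7.10 on untreated and 6.21 to 6.55 on treated wild-type arrays, and 6.37 to 6.86 on untreated and 6.21 to 6.78 on treated mutant-labelled arrays. The part that a few such cells in the cultures played was not tested.

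**Figure D4:**
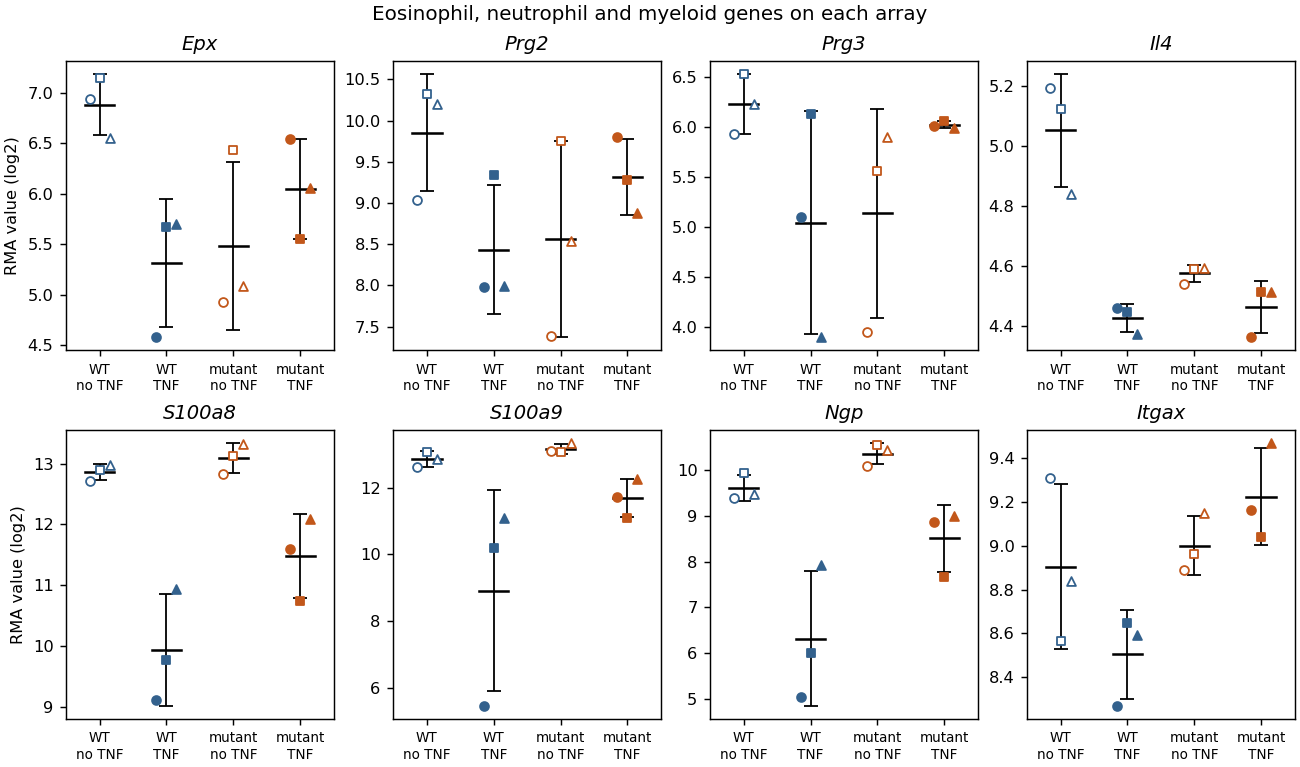
RMA values (log2) of 8 myeloid genes on each array, with circle, square and triangle for replicates 1, 2 and 3, open symbols for untreated and filled symbols for TNF, and bars for the mean and SD of 3 arrays. Epx, Prg2, Prg3 and Il4 step down with TNF in wild type, and S100a8, S100a9 and Ngp step down in both genotypes, with wild-type TNF replicate 1 the lowest array.

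Late neutrophil genes fell in both genotypes, with a lower median in wild type. Of 17 measured, 13 fell on average (6.32% of all genes), 10 fell in wild type (2.33%) and 6 on the mutant-labelled arrays (1.86%). The median response was -2.62 in wild type and -1.48 on the mutant-labelled arrays, while the median of the members' differences was 0.24, with a positive difference for 12 and a negative one for 5. No member reached an unadjusted p under 0.05 for the difference. S100a8, a subunit of the neutrophil protein calprotectin, read 12.72, 12.90 and 12.97 without and 9.12, 9.77 and 10.93 with TNF in wild type, and 12.84, 13.13 and 13.32 without and 11.60, 10.73 and 12.09 with TNF on the arrays labelled mutant, a difference of 1.30 (interval -0.01 to 2.61). S100a9, its partner, read 5.47, 10.21 and 11.08 on treated wild-type arrays and 11.72, 11.10 and 12.26 on treated mutant-labelled ones, and its difference of 2.46 was 0.85 without both wild-type arrays numbered 1. Ngp, a granule protein gene, differed by 1.44 (interval -0.42 to 3.30), or by 0.90 without those arrays. The mean of the 17 genes was 5.85 to 6.98 on treated wild-type arrays and 6.56 to 7.73 on treated mutant-labelled arrays, and 8.36 to 8.76 and 8.77 to 9.09 on the untreated ones.

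Primary granule genes (11 measured) had a median difference of 0.06, with the myeloperoxidase gene Mpo at -0.26 (interval -1.22 to 0.69). Of 26 monocyte, macrophage and dendritic genes 19 had a positive difference, with a median of 0.38 and of 0.18 to 0.72 over the alternatives. Itgax, the integrin chain CD11c, was the 1 with an unadjusted p under 0.05. It read 9.31, 8.56 and 8.84 without and 8.27, 8.65 and 8.59 with TNF in wild type, and 8.89, 8.96 and 9.15 without and 9.16, 9.04 and 9.47 with TNF on the arrays labelled mutant, with overlap in both genotypes and a difference of 0.62 (interval 0.05 to 1.20). Siglech, a plasmacytoid dendritic cell receptor gene, rose on the arrays labelled mutant by 1.04 and differed by 0.77, and Mpeg1, the perforin-like gene of macrophages, fell in wild type and differed by 0.51. Of 19 myeloid transcription factors 0 reached an unadjusted p under 0.05. Irf8, a factor of monocyte and dendritic fate, fell in both genotypes (difference 0.42, interval -0.28 to 1.11), and Egr2 rose by 2.56 on the arrays labelled mutant and differed by 1.14 (interval -0.63 to 2.91).

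For 28 stem cell and multipotent progenitor genes the median was 0.03, and Hoxb5, a transcription factor of long-term stem cells, differed by -0.58 (interval -1.37 to 0.21). For 34 cell cycle genes the median was 0.05, with 28 positive and 6 negative differences, and 33 of the 34 intervals lay within a 2-fold difference. The exception was Cdkn2b, the CDK inhibitor p15, which read 4.76, 4.37 and 4.41 without and 4.09, 4.01 and 4.15 with TNF in wild type, and 4.25, 4.04 and 4.21 without and 4.90, 4.17 and 6.10 with TNF on the arrays labelled mutant. Its difference of 1.32 (interval 0.20 to 2.43) was the 1 in the list with an unadjusted p under 0.05, and it was 0.80 without treated mutant-labelled replicate 3. Its neighbour Cdkn2a differed by -0.25. Of cytokine feedback genes Cish (-0.43) and Pim3 (-0.49), a STAT5-induced inhibitor and a survival kinase, were the 2 of 21 with an unadjusted p under 0.05 (2.9% of all genes). In the megakaryocyte list this was so for Gp6 (0.72), the platelet collagen receptor gene, 1 of 13, and the median difference was 0.19, with 9 positive and 4 negative. The erythroid (14), lymphoid and natural killer (23), unfolded protein response (23) and Toll-like receptor and inflammasome (22) lists held none. Their median differences were 0.05, 0.13, 0.03 and 0.04, and Icam4 (0.72), Cd3e (0.27), Ddit3 (0.33) and Tlr4 (0.49) stood among their members with the smallest unadjusted p.

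**Figure D5:**
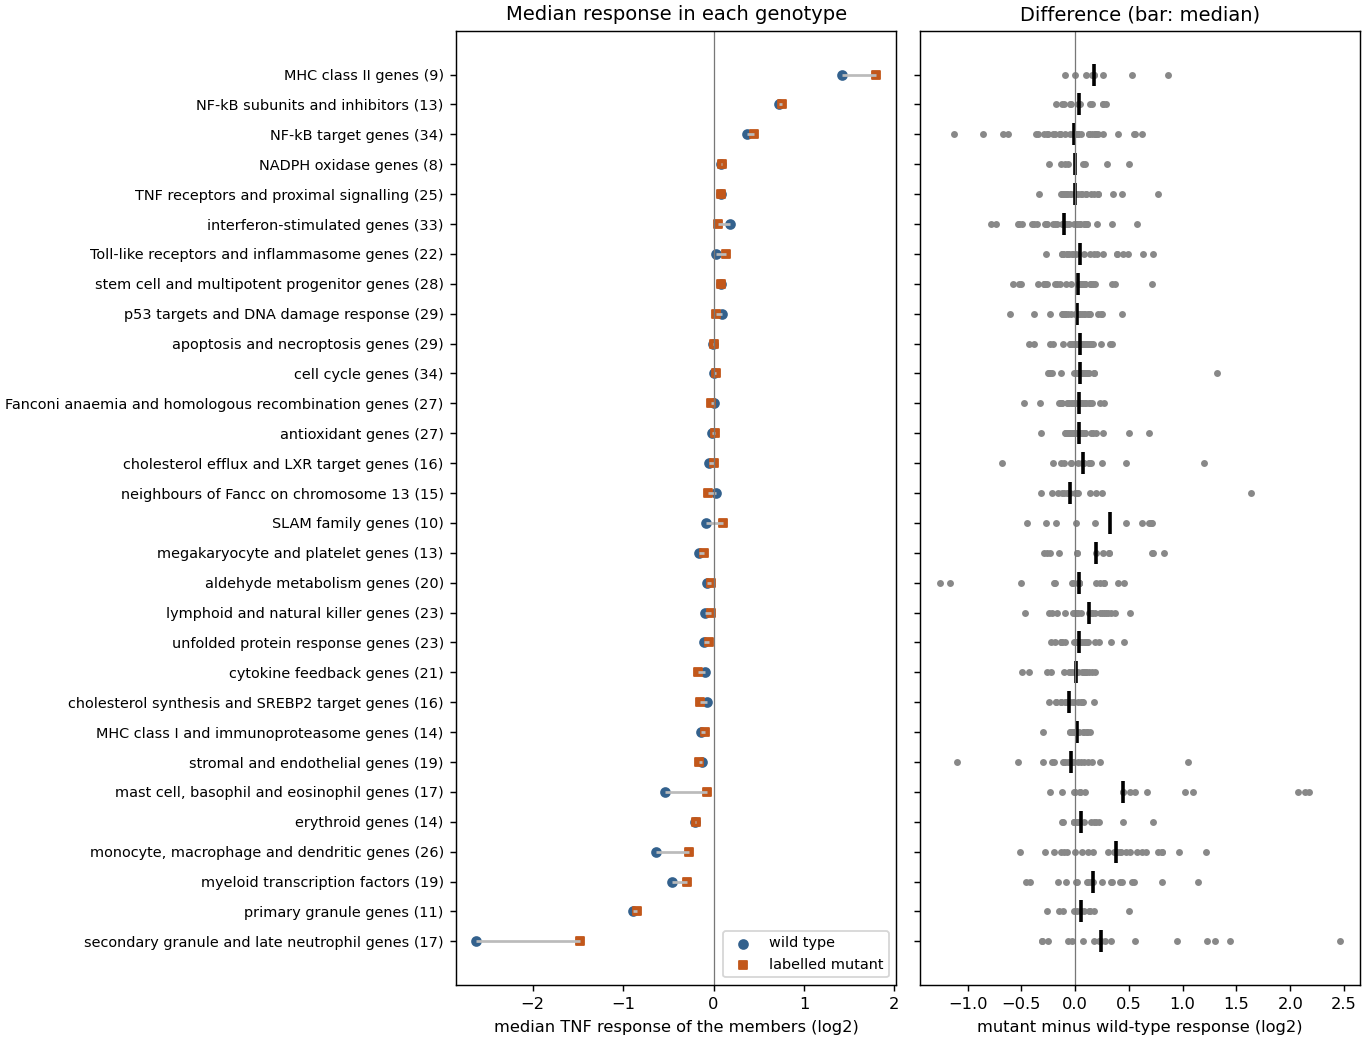
Left, median TNF response (log2) of the measured members of 30 gene lists in wild type (circles) and on arrays labelled mutant (squares), with the number of measured genes in parentheses. Right, the difference between the 2 responses for each member (points) and the list's median (bar). The gap between medians is widest for secondary granule and late neutrophil genes, at -2.62 and -1.48, and no single member's difference passed the test.

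By size alone, the differences furthest from 0 included the sex-linked transcripts. Eif2s3y (4.55, interval -2.18 to 11.29), the Y-linked demethylase gene Kdm5d (3.13) and Xist (-2.52) passed in neither genotype. Xist and Eif2s3y were each dim on some arrays, as given above, and Kdm5d read 4.20 on TNF-treated wild-type replicate 3 and 3.18 on untreated mutant replicate 2 against 7.56 to 9.55 elsewhere. The lowest value belonged to Elobl, an elongin B-like gene on chromosome 11, which read 3.77 to 4.03 on the 6 wild-type arrays, near the floor. On the arrays labelled mutant it read 8.37, 8.83 and 7.88 without and 5.43, 3.79 and 7.40 with TNF, a response of -2.82 that passed there, and the difference was -2.75 (SE 0.94, interval -4.82 to -0.68). A fall could not be seen in wild type at that level. Nav3, a cytoskeletal navigator protein gene, read 3.22, 3.28 and 3.67 without and 6.59, 6.50 and 6.60 with TNF in wild type, and 3.54, 3.54 and 3.69 without and 4.21, 5.74 and 5.06 with TNF on the arrays labelled mutant. It rose in both genotypes, by 3.17 and 1.41, with all treated wild-type arrays above all treated mutant-labelled ones and a difference of -1.76 (SE 0.41, interval -2.66 to -0.85). The other 2 probe sets of Nav3 showed no response beyond 0.11 in either genotype. The chloride channel gene Ano1 (-1.57) and Arhgap42 (-1.44) also rose in wild type with smaller responses on the arrays labelled mutant. Tgfb3 (-1.66) and Dmrta2 (-2.00), and in the other direction Diras2 (1.78) and Syce1 (2.12), were among the 8 furthest from 0 and passed in neither genotype. On the 7 arrays with both sex signals the value for Tgfb3 was -0.05, and the dimmer probe set of Diras2 gave -0.08.

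Fbp1, the gluconeogenic enzyme fructose-1,6-bisphosphatase, lies near Fancc on chromosome 13. It read 8.71, 7.79 and 8.02 without and 6.19, 6.54 and 4.56 with TNF in wild type. On the arrays labelled mutant it read 11.20, 10.89 and 10.89 without and 10.26, 10.29 and 10.09 with TNF, above every wild-type array in both states. It fell in wild type by 2.41, the response on the arrays labelled mutant was -0.78, and the difference was 1.63 (SE 0.59, interval 0.33 to 2.94, unadjusted p = 0.019), or 1.05 with Xist and Eif2s3y as covariates. Of the 15 measured neighbours of Fancc it was the 1 with an unadjusted p under 0.05. Aopep, an aminopeptidase gene beside Fancc, fell in both genotypes and differed by 0.25 (interval -0.01 to 0.51).

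A gene called in only 1 genotype was not thereby shown to differ between them. In wild type TNF called 913 genes (5.02%) and 784 on the mutant-labelled arrays (4.31%), of which 551 were called in both. The first count was 509 without untreated and 474 without TNF-treated wild-type replicate 3, and 410 with the Xist and Eif2s3y covariates. The second was 444 and 457 without untreated mutant replicates 2 and 3, 506 and 512 without the treated ones, and 452 with the covariates. Of the 362 called in wild type only, 350 had the same sign on the arrays labelled mutant, with median sizes of 0.71 and 0.39. Of the 233 called on the arrays labelled mutant only, 226 had the same sign in wild type, with median sizes of 0.43 and 0.75. The difference reached an unadjusted p under 0.05 for 81 of the 362 (22.4%) and 46 of the 233 (19.7%), against 2.9% of all genes. These counts follow in part from choosing genes by 1 of the 2 responses, and the difference passed for none of the genes. Those with the smallest unadjusted p were Gfra4, Spats2, B3gnt3 and Tm4sf1 among the former and Abca1, Col5a3, Slc35e4 and Lrat among the latter, with the values given above.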

How the data were processed

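RNA of 5 to 15 ng per sample was amplified and hybridised to Affymetrix Mouse Genome arrays, per the labels' protocols. The authors deposited 1 log2 value per probe set and array, made with RMA (background correction, normalization across arrays and summary of probes), per the submitters' processing notes. Its version is not stated in the labels used here, and the log base was taken from the values, which run from 2.14 to 14.55 over all probe sets other than controls. RMA equalises the arrays, so an overall shift between groups cannot be seen, and fold changes of weak signals are understated.

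Of 45101 probe sets, 64 controls were left out, 34945 had 1 gene symbol in the platform annotation, 932 had several and 9160 were not listed, so they are unnamed here. The probe set with 1 symbol and the highest mean stood for its gene, leaving 18193 genes (9010 had a choice of probe sets). The 4 group means of a gene were estimated from the 12 arrays together in limma 3.58.1 (R 4.3.3), with its empirical Bayes moderation of the variance. The script was tested on simulated data. Groups and replicate numbers came from the labels.

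The members and the 30 gene lists (596 of 661 genes measured) were chosen with earlier results of these data known. Genes named were the 10 with the smallest unadjusted p for the difference in each direction, the 8 furthest from 0 in each, the 10 highest and 10 lowest average responses, the 4 per genotype called in it alone, the 6 with the largest opposite responses without overlap, 3 per list by unadjusted p, every NF-kB subunit and inhibitor, and Fancc, Tnf, its receptors, Xist and Eif2s3y. Predicted genes were skipped. A result for 1 gene that this rule named is not reported here. Kit, Cd34, Flt3, Itgam and Cd4 were named as gate markers, and Gzma, Themis and Aldh1a1 after their values were seen. Alternatives were a replicate block, a filter on low values, the mean of probe sets, every probe set, array weights (statmod 1.5.0), moderation with a trend and robust to outliers, median centring, cyclic loess, sex-linked covariates, only arrays with both sex signals, fits of 1 genotype and leaving out each array. Leaving out both wild-type arrays numbered 1 was chosen after seeing the data.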

Additional observations from a re-analysis of the deposited data

Results flagged for a closer look

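The genes below were picked out because all 3 TNF arrays lay on one side of all 3 untreated arrays in wild type and on the other side on the arrays labelled mutant. This was seen for 32 of 18193 genes (0.176%), and the limma test of the difference itself passed for none of them. For Emcn, an endothelial mucin gene, the TNF arrays lay above the untreated ones in wild type and below them on the mutant-labelled arrays, with a difference of -1.10 (95% interval -1.63 to -0.57).

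Zfp248, a zinc finger gene, had the largest gap, a difference of -1.35 (95% interval -2.17 to -0.53). It read 4.80, 5.70 and 4.65 without and 5.85, 6.12 and 5.78 with TNF in wild type, and 5.80, 5.58 and 5.58 without and 4.71, 5.43 and 5.37 with TNF on the arrays labelled mutant. Dusp28, a phosphatase gene, had a difference of -0.76 (interval -1.19 to -0.33) at levels of 5.88 to 6.74. Lrat, the retinol esterifying enzyme gene, had a difference of -0.48 (interval -0.70 to -0.26) at levels of 3.85 to 4.35, near the floor, and its dimmer probe set gave -0.15.

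Rbm44, an RNA-binding protein gene, went the other way, with a difference of 1.12 (interval 0.23 to 2.00). It read 7.13, 5.86 and 5.98 without and 5.54, 5.73 and 5.74 with TNF in wild type, where untreated replicate 1 stood highest, and 5.30, 4.92 and 5.53 without and 5.86, 5.63 and 5.64 with TNF on the arrays labelled mutant. Its difference was 0.65 without both wild-type arrays numbered 1 and 0.53 on the arrays with both sex signals, and its dimmer probe set gave -0.05. The genes Tmem202 (difference 0.79, interval 0.22 to 1.37) and Mospd4 (difference 0.69, interval 0.29 to 1.09) followed, at levels of at most 4.92 and 5.80. The dimmer probe set of Tmem202 gave 0.15.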

How the results depend on the processing

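The number of arrays limits the precision, and p-values cover only the spread between these samples. The genotype dependence called 0 genes in the fit reported and under every alternative but 1, so its range over the fits that leave out 1 array was 0 to 1, the 1 being Tm4sf1 without untreated wild-type replicate 1. At an unadjusted p under 0.05 the alternatives over genes gave 153 genes (filter on low values) to 925 (array weights), and the test of every probe set gave 1288. The median difference over all genes was -0.0142 with centred arrays and 0.0024 with cyclic loess, against -0.0002 in the fit reported. For TNF averaged over genotype the count of 2207 became 1270 with the Xist and Eif2s3y covariates and 3337 over every probe set, and 1598 to 2225 without 1 array. For TNF in wild type the 913 became 410 with the covariates, 39 on the arrays with both signals, 523 with only the wild-type arrays fitted, and 474 to 957 without 1 array. For TNF on the arrays labelled mutant the 784 became 452 with the covariates, 59 on the arrays with both signals, and 444 to 951 without 1 array. The split between higher and lower was 457 and 529 in wild type and 406 and 450 on the arrays labelled mutant with centred arrays, and 556 and 392 and 514 and 305 with cyclic loess, against 489 and 424 and 446 and 338 in the fit reported.

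For 153 named genes, 3310 values of the difference were recomputed, and 97 had the other sign from the reported value. For 8 of these the reported value lay more than 1 SE from 0. With the mean of probe sets Atm read 0.0429 and Traf1 -0.0863. On only the arrays with both sex signals, with 1 untreated array per genotype, Eif2s3y read -0.97, Kdm5d -0.70, Pf4 -0.50, Tnf -0.11, Itgb3 -0.0873 and Tnfrsf1b -0.0208. Among the other turned values were those of Fpr2 (-0.66) and Acod1 (-0.23) on the same arrays. The cause was not tested. In the 2 lists of late neutrophil and of mast cell, basophil and eosinophil genes the median difference stayed above 0 under all 22 alternatives. Its lowest values there, 0.09 and 0.17, came without treated mutant-labelled replicate 3. The median also stayed above 0 throughout in the monocyte, myeloid transcription factor, apoptosis, cell cycle, unfolded protein response and cholesterol efflux lists.

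Replicate numbers are shared between groups, so a replicate block was also fitted. It called 0 genes for the genotype dependence, with 575 at an unadjusted p under 0.05, and 2181, 920 and 790 for the average, wild type and the arrays labelled mutant. Same-numbered arrays correlated in their deviations from group means at -0.16 to 0.28 over 18 pairs (median 0.05), 7 of them over 0.1, against 6 of 36 pairs of other numbers (median -0.02), and 10 of 12 arrays correlated best with an array of their own number. That is a hint from the data that numbers mark something shared. The labels do not say so and not every pair was over 0.1, so the fit without the block was kept.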

Other observations

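Among the genes whose TNF response ran in opposite directions without overlap were 2 of cytotoxic and T cells, both named after their values were seen. Gzma, which encodes the cytotoxic protease granzyme A, responded by -0.39 in wild type and by 0.20 on the mutant-labelled arrays, a difference of 0.59 (unadjusted p = 0.0126). Themis, a signalling adaptor of developing T cells, responded by 0.23 and -0.23, a difference of -0.45 (unadjusted p = 0.0106). Neither passed in limma over all genes.

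Acta2, the smooth muscle actin gene and a stromal marker, read 6.87, 7.23 and 7.26 without and 6.57, 5.93 and 5.54 with TNF in wild type. On the arrays labelled mutant it read 6.81, 6.997 and 7.70 without and 7.40, 5.81 and 8.12 with TNF, a difference of 1.05 (95% interval -0.49 to 2.59). Treated replicate 2 was the lowest of its group, as it was for Acod1, Fpr2, Ly6i, Adgre4, Cp and Slc7a11. Pf4, the platelet factor 4 gene, read 10.22, 9.97 and 8.81 without and 9.52, 9.30 and 9.09 with TNF in wild type, and 8.59, 8.25 and 8.96 without and 8.70, 8.96 and 9.53 with TNF on the arrays labelled mutant. Its difference was 0.83 (interval -0.24 to 1.90), and all untreated mutant-labelled arrays but replicate 3 lay below every wild-type array.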
